A study of Mus musculus with 19 samples.

Results

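Gene expression in lavage cells of naive ICAM-1 null mice was compared with that of naive wild type mice. The comparison takes 9 of the 19 libraries of the series, 4 wild type and 5 null, chosen by their genotype and treatment labels, and all genes of the deposited tables. Each library is bulk RNA-seq of the cells washed from the airspaces of the lung of female mice of 7 to 8 weeks, labelled alveolar macrophages, and the labels describe no sort. Wild type mice were C57Bl/6J, and the other line is labelled ICAM-1 null and carries no other allele in the labels. The labels do not say whether naive mice received a vehicle or an anaesthetic. The genetic background of the null line, and whether any mice were littermates, are also not given, so loss of ICAM-1 and other differences between the lines cannot be told apart. The other 10 libraries come from mice of the same lines lavaged 1 h after aspiration of S. aureus bioparticles, and are used here only to see whether a naive difference was also measured in other mice.

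Alveolar macrophages are the resident phagocytes of the airspace, where they clear inhaled particles and microbes and recycle surfactant lipid. ICAM-1 is an adhesion molecule of the immunoglobulin superfamily that binds the beta2 integrins of leukocytes, and its cytoplasmic tail is linked to the actin cytoskeleton. It is best known on endothelium, where it holds leukocytes before they leave the blood, and it is also made by macrophages.

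Total estimated counts were 32.8, 37.0, 41.0 and 80.3 M in wild type naive libraries 1 to 4 and 59.8 to 78.8 M in the null naive libraries, so that 3 of the 4 wild type libraries were shallower than all null libraries. Over the 2000 most variable genes, the first principal component of the naive libraries held 28.5% of the variance and put all wild type libraries (-49.2 to -13.6) on the other side of all null libraries (22.1 to 34.0). Wild type library 4, the deepest, lay closest to the null libraries. Wild type library 1 stood apart on the second component, which held 14.9%. Alveolar macrophage markers summed to 36827 to 41473 TPM (transcript abundance per gene length, scaled to a fixed sum per library) in wild type and 42231 to 44251 TPM in null libraries. Chil3 alone stood at 15188 ± 1381 TPM (SD, n = 4) and 16822 ± 1447 TPM (n = 5), and did not pass the test (adjusted p = 0.16). In such bulk RNA, fewer cells of a type and less RNA per cell cannot be told apart.

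The targeted gene was low but not absent in the null line. Icam1 (ENSMUSG00000037405.9, chromosome 9, 20927281 to 20940113 on GRCm39) stood at 81.4, 85.9, 63.8 and 67.2 TPM in wild type libraries and at 11.6, 9.52, 8.40, 4.88 and 6.29 TPM in null libraries. No null library reached the lowest wild type library, and the log2 fold change, here and below null over wild type, was -3.13 (SE 0.19, adjusted p = 1.6e-10). Null libraries still held 480 to 1186 estimated Icam1 counts, and values per gene do not show which exons they came from. Gm47079 (chromosome 9, 20939603 to 20943653), a transcript on the opposite strand that overlaps the end of Icam1 and also Icam4 and Icam5, went the other way. It stood at 0.119 to 0.552 TPM in wild type and 1.67 to 4.11 TPM in null libraries (log2 fold change 3.36, SE 0.44, adjusted p = 2.1e-05). The strand setting of the counting is not given, so reads of these overlapping genes cannot be told apart.

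The other measured members of the family were far less abundant than Icam1 in wild type mice, but Icam4 and Icam5 stood near its remaining level in null mice. Icam4, the Landsteiner-Wiener blood group protein, which is best known on red cells and lies beside Icam1, was higher in null mice. Its levels were 3.08, 1.64, 0.507 and 1.78 TPM in wild type and 8.28, 6.98, 6.17, 3.82 and 6.52 TPM in null libraries, without overlap (log2 fold change 1.90, SE 0.36, adjusted p = 0.0015). Icam5, the telencephalic ICAM, did not pass at 4.67 ± 0.236 and 6.03 ± 0.895 TPM (adjusted p = 0.35). Icam2, known mainly from endothelium and platelets, did not pass either at 3.03 ± 1.75 and 2.56 ± 0.99 TPM (adjusted p = 0.86).

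Of 20501 genes tested, 1406 (6.86%) differed between the naive lines at an adjusted p under 0.05, 883 higher in null mice (4.31%) and 523 lower (2.55%). The difference was at least 1 on the log2 scale in 503 genes (2.45%), 332 higher and 171 lower. At an unadjusted p under 0.05 there were 3542 genes (17.3%). The TPM ranges of the groups did not overlap in 2307 of the genes tested (11.3%), with null libraries above in 919 (4.48%) and below in 1388 (6.77%). The split between directions depended on the scale: on log2(TPM + 1), limma called 680 genes higher and 785 lower, so that 46.4% of calls were higher against 62.8% on counts. Most calls were protein-coding (1231 of 14350 tested, 8.58%), whereas 94 of 2529 long non-coding RNAs (3.72%) were called. Genes below are said to be higher or lower only where they passed this test in naive mice, over all 20501 genes.

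**Figure D1:**
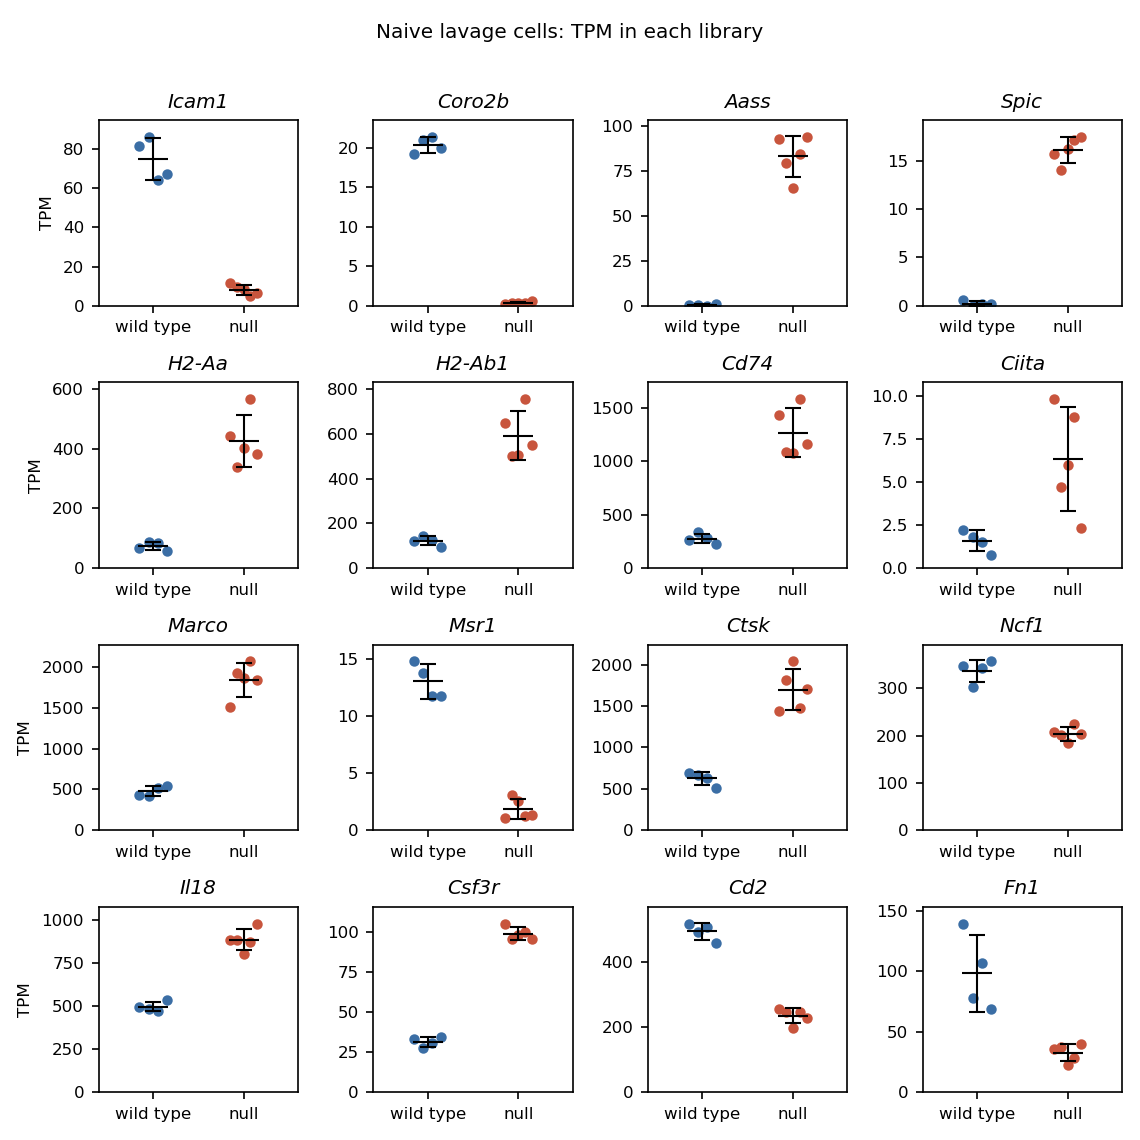
TPM of 16 genes in each naive library. Points are libraries (4 wild type, 5 null), horizontal bars are means and whiskers are SDs, on linear axes that start at 0. The groups do not overlap for any of the 16 genes: Icam1, Coro2b, Msr1, Ncf1, Cd2 and Fn1 lie lower in null libraries and the other 10 higher. The 16 were picked with values known, and Coro2b, Aass and Spic were named by a rule that requires no overlap. Their separation is therefore no test. Of all genes tested, 11.3% did not overlap.

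A few genes were close to off in null mice. With a mean under 0.5 TPM in null and at least 5 TPM in wild type, 5 genes met this description: Skint3, Coro2b, Ppfia4, Kazn and Adamts2. Coro2b (chromosome 9, 62326774 to 62444326), a coronin that binds actin, had 19.2, 21.1, 21.4 and 20.0 TPM in wild type libraries and 0.279, 0.397, 0.368, 0.411 and 0.567 TPM in null libraries, a difference of -5.49 on the log2 scale (SE 0.20, adjusted p = 4.1e-14). Skint3 (chromosome 4, 112089442 to 112157665), of a family of membrane proteins named for the upkeep of skin T cells, had 9.95 to 15.1 TPM against 0.0587 to 0.323 TPM, a log2 fold change of -6.25 (SE 0.39). Ppfia4, a liprin scaffold protein, had 13.7 to 15.5 TPM against 0.134 to 0.214 TPM. Kazn, a desmosome-associated protein, had 13 ± 0.81 against 0.338 ± 0.146 TPM, and Adamts2, which trims procollagen, 5.88 ± 0.72 against 0.260 ± 0.0835 TPM.

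Other genes with large deficits kept some expression in null mice. C77080 had 25.7 to 36.2 TPM in wild type and 1.00 to 1.52 TPM in null libraries, and it overlaps Yars on the opposite strand. Lipf, a gastric lipase, had 14.3 to 22.0 TPM against 0.611 to 1.84 TPM. Nt5e, the ectoenzyme CD73 that makes adenosine from AMP, had 14.6, 11.1, 17.7 and 16.1 TPM in wild type and 0.560, 1.27, 0.900, 1.63 and 1.86 TPM in null libraries (log2 fold change -3.50, SE 0.34, adjusted p = 3.2e-07). Creg2, Scml4, Zfp532, Tmem51os1 and Plekha6 made up the rest of the lower genes with the largest changes, all under 7 TPM in every library and with log2 fold changes from -4.98 to -3.01. Mir7678 was also among them at -3.04, but it lies within Slpi on the same strand, so its reads cannot be told from those of Slpi. Its call was lost without wild type library 3 (adjusted p = 0.057).

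In the other direction, 6 genes stood under 0.5 TPM in wild type and at 5 TPM or more in null mice: Aass, Slc10a6, Spic, Slc22a4, Sox7 and the predicted gene Gm44511, which overlaps Klrb1c on the same strand. Aass (chromosome 6, 23072172 to 23132985), the enzyme that opens lysine breakdown, had 0.426, 0.195, 0.130 and 1.15 TPM in wild type and 92.6, 79.1, 65.6, 84.3 and 93.6 TPM in null libraries. Its log2 fold change was 7.28 (SE 0.34, adjusted p = 2.7e-12). Spic (chromosome 10, 88510634 to 88520877), the transcription factor that red pulp macrophages of the spleen need, had 0.561, 0, 0.136 and 0.202 TPM in wild type and 15.8, 14.1, 16.2, 17.1 and 17.4 TPM in null libraries. Its log2 fold change was 6.16 (SE 0.45, adjusted p = 3.4e-09). Slc22a4, a carrier of ergothioneine, had 0.188 to 1.16 TPM against 21.8 to 34.8 TPM, and Slc10a6, a carrier of sulfated steroids, 0 to 0.272 TPM against 9.78 to 21.2 TPM. Sox7, a transcription factor of the SOX family, had 0 to 0.523 TPM against 6.82 to 15.9 TPM.

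The acute phase gene Orm2, listed at 0 to 0.956 TPM in wild type, was held within 10.8 to 11.7 TPM in all 5 null libraries. Depp1, a target of FOXO factors, had 0.871 ± 0.749 TPM in wild type and 12.9 ± 0.98 TPM in null mice. Kcnj15, a potassium channel, had 0.258 to 0.811 TPM against 3.38 to 14.2 TPM. Lyrm7, which helps to assemble respiratory complex III, had 1.32 ± 0.67 against 8.94 ± 1.37 TPM. Tafa5, Rgs7bp, Vmn2r26, Bend4, Vnn3 and Hsd17b14 completed the higher genes with the largest changes, with log2 fold changes from 3.60 to 3.96 and at most 5.43 TPM in any library. The call for Hsd17b14 was lost without wild type library 2 (adjusted p = 0.061), 3 (0.063) or 4 (0.056), and its fold change rose to 7.77 without wild type library 1.

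The core MHC class II genes were higher in null mice, and their list was the list with the largest share of higher genes. MHC class II molecules present peptides from engulfed material to helper T cells: H2-Aa, H2-Ab1 and H2-Eb1 encode their chains, Cd74 is the invariant chain that guides them, H2-DM loads the peptide, and Ciita is their master regulator. Of 15 members of the list of class II and co-stimulatory genes, all tested, 7 were higher, 1 was lower and 7 did not pass. The share called was 53.3%, against 6.86% over all genes tested. The median log2 fold change was 0.54 against 0.01 over all genes tested.

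H2-Aa (ENSMUSG00000036594.16, chromosome 17, 34501718 to 34506797) had 67.5, 87.9, 85.4 and 58.7 TPM in wild type and 445, 339, 403, 567 and 384 TPM in null libraries, which is a difference of 2.57 on the log2 scale (SE 0.22, adjusted p = 2.9e-08). H2-Ab1 had 95.2 to 144 TPM against 499 to 755 TPM (2.33, SE 0.18), and H2-Eb1 had 44.1 to 49.4 TPM against 199 to 340.0 TPM (2.43, SE 0.21). Cd74 had 259.9, 336, 281 and 228 TPM in wild type and 1436, 1090, 1083, 1583 and 1162 TPM in null libraries (2.27, SE 0.18, adjusted p = 1e-08). For all of these genes the lowest null library stood more than 3-fold above the highest wild type library. Null libraries 1 and 4 were the highest for H2-Ab1, Cd74, H2-Aa and Ciita. Ciita had 2.23, 1.81, 1.49 and 0.776 TPM in wild type and 9.80, 4.73, 6.00, 8.75 and 2.31 TPM in null libraries, so that null library 5 stood just above wild type library 1 (log2 fold change 2.14, SE 0.41, adjusted p = 0.0016).

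The H2-DM genes went in both directions. H2-DMb1 was higher in null mice (154 ± 14.6 to 245 ± 31.6 TPM, log2 fold change 0.77, SE 0.13), while H2-DMa was lower (675 ± 27.0 to 479 ± 54.4 TPM, -0.40, SE 0.08, adjusted p = 0.0018). H2-DMb2, which is not on the list and was looked up after the values of its neighbour were seen, was lower at 33.4 ± 4.90 TPM against 62.4 ± 6.95 TPM (-0.84, SE 0.12, adjusted p = 7.7e-05). H2-DMb1 and H2-DMb2 are close copies, and how the counting divided shared reads between them is not given. Cd80, a co-stimulatory ligand, was modestly higher (0.54, SE 0.11). Without wild type libraries 1, 2 and 3 together, which leaves a single wild type library that is assumed to vary like the other groups, 6 members of the list were still called higher.

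Class II promoters are known for a shared arrangement of boxes that includes an inverted CCAAT element, the Y box. RefSeq upstream sequence (GRCm38.p6, an older build than the GRCm39 of the tables) was given for 9 of the 16 genes made up of the list and H2-DMb2, with 10 entries. The motif TGATTGG was searched on both strands of the 250 bases before each start. It occurred in 4 of these entries, on the gene's own strand, and in 2375 of all 32851 promoters of the table (7.23%). The 4 are shown 5′ to 3′ with the motif in capitals, because these genes are neighbours that went in different directions: the first 3 were higher in null mice and the fourth was lower.
H2-Aa, chr17:34287824-34288073, minus strand: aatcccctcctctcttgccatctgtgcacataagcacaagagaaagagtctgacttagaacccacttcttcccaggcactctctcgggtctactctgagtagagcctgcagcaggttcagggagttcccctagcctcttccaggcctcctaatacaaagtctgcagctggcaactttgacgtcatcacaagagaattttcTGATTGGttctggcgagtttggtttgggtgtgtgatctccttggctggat
H2-Eb1, chr17:34305617-34305866, plus strand: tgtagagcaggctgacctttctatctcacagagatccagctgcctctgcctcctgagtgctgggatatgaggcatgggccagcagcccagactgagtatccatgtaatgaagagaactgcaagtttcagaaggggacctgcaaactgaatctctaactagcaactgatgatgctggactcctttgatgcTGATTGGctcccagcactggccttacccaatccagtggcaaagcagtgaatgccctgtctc
H2-DMb1, chr17:34152941-34153190, plus strand: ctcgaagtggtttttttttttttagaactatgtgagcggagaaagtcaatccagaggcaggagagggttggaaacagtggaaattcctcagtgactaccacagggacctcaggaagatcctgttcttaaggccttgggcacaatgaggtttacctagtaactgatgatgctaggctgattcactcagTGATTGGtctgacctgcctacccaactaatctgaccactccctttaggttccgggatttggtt
H2-DMb2, chr17:34144999-34145248, plus strand: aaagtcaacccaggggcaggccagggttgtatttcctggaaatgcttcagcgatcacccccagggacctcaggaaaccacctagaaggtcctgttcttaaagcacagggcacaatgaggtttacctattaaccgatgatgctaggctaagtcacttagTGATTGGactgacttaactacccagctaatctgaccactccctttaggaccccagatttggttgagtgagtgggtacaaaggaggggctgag
The motif began 50 bases before the start of H2-Aa, 61 before H2-Eb1, 63 before H2-DMb1 and 92 before H2-DMb2. It was in neither entry of H2-DMa nor in that of Cd80. A match describes the letters of this window only, and any part of the motif in the differences was not tested.

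MHC class I genes, which present peptides from inside the cell, showed smaller differences. Of 15 tested, 2 were higher and none was lower (13.3% called, against 6.86% over all genes tested), with a median of 0.20. H2-D1, a class I heavy chain, was higher by 0.31 (SE 0.06, adjusted p = 0.00065), with 1961 ± 73.8 against 2349 ± 40.1 TPM. B2m, the shared light chain, was higher by 0.28 (adjusted p = 0.041), a call lost in 6 of the 9 fits without a single library (adjusted p up to 0.13).

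Among receptors for particles and microbes, the scavenger receptors Marco and Msr1 went in opposite directions. Marco (chromosome 1, 120402267 to 120432753), a collagen-like scavenger receptor typical of alveolar macrophages, had 431, 417, 521 and 546 TPM in wild type and 1511, 1929, 1870, 2071 and 1841 TPM in null libraries. The groups were far apart (log2 fold change 2.01, SE 0.19, adjusted p = 1.4e-07). Msr1, the class A scavenger receptor, had 14.8, 13.8, 11.8 and 11.8 TPM in wild type and 1.04, 3.10, 2.57, 1.26 and 1.34 TPM in null libraries (-2.77, SE 0.28, adjusted p = 5.3e-07). Fcgr1, the high-affinity receptor for IgG, was lower in null mice at 25.3 ± 2.68 against 51.5 ± 2.48 TPM (-0.96, SE 0.11). C5ar1, a receptor for the complement fragment C5a, was also lower (-0.35). Of 30 receptors tested in the list, 8 were higher and 3 lower (36.7% called, against 6.86% over all genes), with a median of 0.11. The other higher receptors were Clec4a3, Clec4e, Mrc1, Vsig4, Scarb1, Scarb2 and Colec12. Only 5 were called higher without wild type library 1 or without wild type library 3, and 4 on log2(TPM + 1). The call for Vsig4, a complement receptor with 0.253 ± 0.127 against 1.49 ± 0.20 TPM, was lost without wild type library 1 (adjusted p = 0.061) or 4 (0.056).

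Genes of the phagosome and lysosome that passed were all higher in null mice. Of 39 tested, 10 were higher and none lower (25.6% called, against 6.86% over all genes), and the median was 0.17. Ctsk, a cathepsin that cuts collagen, had 697, 666, 632 and 516 TPM in wild type and 1447, 1818, 2040, 1478 and 1712 TPM in null libraries (log2 fold change 1.5, SE 0.13, adjusted p = 5.9e-08). The other 9 differed by less: Gla, an alpha-galactosidase, by 0.55 (SE 0.09), Lgmn, an endopeptidase, by 0.46, Atp6v0d2, a subunit of the proton pump, by 0.30, and Lamp1, the abundant membrane glycoprotein, by 0.26. Fewer were called on the TPM scale, 6 with 1 and 5 with 0.1 added before taking logs.

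Those genes of the phagocyte NADPH oxidase, which makes superoxide, that passed were lower in null mice. Of 10 tested, 3 were lower, none was higher and 7 did not pass (30% called, against 6.86% over all genes). The median was -0.06, and 3 of the 10 log2 fold changes lay above 0. Ncf1, the p47phox subunit, had 347, 303, 342 and 357 TPM in wild type and 208, 202, 184, 225 and 203 TPM in null libraries (-0.67, SE 0.11, adjusted p = 0.00045). Ncf4, the p40phox subunit, was lower by less, at 62.1 ± 3.57 against 86.3 ± 1.91 TPM (-0.34, SE 0.06). Rac2, the GTPase of the complex, was lower by -0.35, a call lost without wild type library 1 (adjusted p = 0.091) or 2 (0.11) or null library 4 (0.066). The Ncf1 locus overlaps Gtf2ird2 on the opposite strand.

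The main integrin chains that bind ICAM-1 did not pass the test. Itgb2, the common beta2 chain, stood at 747 ± 57.0 and 619 ± 63.7 TPM and did not pass (adjusted p = 0.17), nor did Itgal, the LFA-1 alpha chain, at 105 ± 7.99 and 109 ± 9.24 TPM (adjusted p = 0.71). The Itgb2 difference was called after exposure (-0.32, adjusted p = 0.013), with no interaction called. Itgam, a scarce alpha chain, did not pass at 1.09 ± 0.16 and 1.76 ± 0.36 TPM (0.75, adjusted p = 0.15), though its groups did not overlap. Itgad, another beta2 partner, known from red pulp macrophages, was higher in null mice, with 9.03, 7.34, 11.2 and 9.47 TPM in wild type and 35.4, 28.9, 20.5, 30.1 and 24.2 TPM in null libraries (1.59, SE 0.19, adjusted p = 4.3e-06). Pxn, the adaptor paxillin of focal adhesions, was lower, with 95.9, 99.6, 86.7 and 84.4 TPM against 50, 45.7, 49.2, 42.2 and 52.1 TPM (-0.88, SE 0.10, adjusted p = 1.6e-06). Fgr, a Src family kinase, was lower by -0.48. Of 29 partners and cytoskeletal linkers tested, 4 were higher and 3 lower (24.1% called, against 6.86% over all genes), with a median of 0.08. The other members called were Actn1, Actn4 and Itgax, all higher by at most 0.32, and Rac2. The Actn4 call was lost without wild type library 3 (adjusted p = 0.072) or 4 (0.071) or null library 2 (0.069) or 5 (0.050). Between 1 and 4 members were called higher when a single library was left out, the fewest without wild type library 4 and 2 without wild type library 3 or null library 2.

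Adhesion molecules outside the family also differed in both directions. Fn1, the matrix protein fibronectin, had 139, 78.1, 107 and 68.9 TPM in wild type and 35.4, 37.3, 23, 28.0 and 39.8 TPM in null libraries (-1.63, SE 0.18, adjusted p = 2.1e-06). Cd2, an adhesion receptor best known on T cells, had 519.5, 494, 509.7 and 460.1 TPM in wild type and 257, 247, 199, 248 and 230.4 TPM in null libraries (-1.01, SE 0.08, adjusted p = 2.8e-08). F11r, the junctional adhesion molecule A, was lower by -0.35 and Itgav, an integrin alpha chain, by -0.55. Vcam1, like ICAM-1 an integrin ligand, was higher but scarce, at 0 to 0.300 TPM in wild type and 0.844 to 2.42 TPM in null libraries (2.91, SE 0.48, adjusted p = 0.00029). Of 22 tested, 3 were higher and 4 lower (31.8% called, against 6.86% over all genes). The other higher members were Cd84 and Itga6, whose call (1.97) was lost in 5 of the 9 fits without a single library (adjusted p up to 0.097). Only 1 member was called higher without wild type library 2 or without null library 2.

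**Figure D2:**
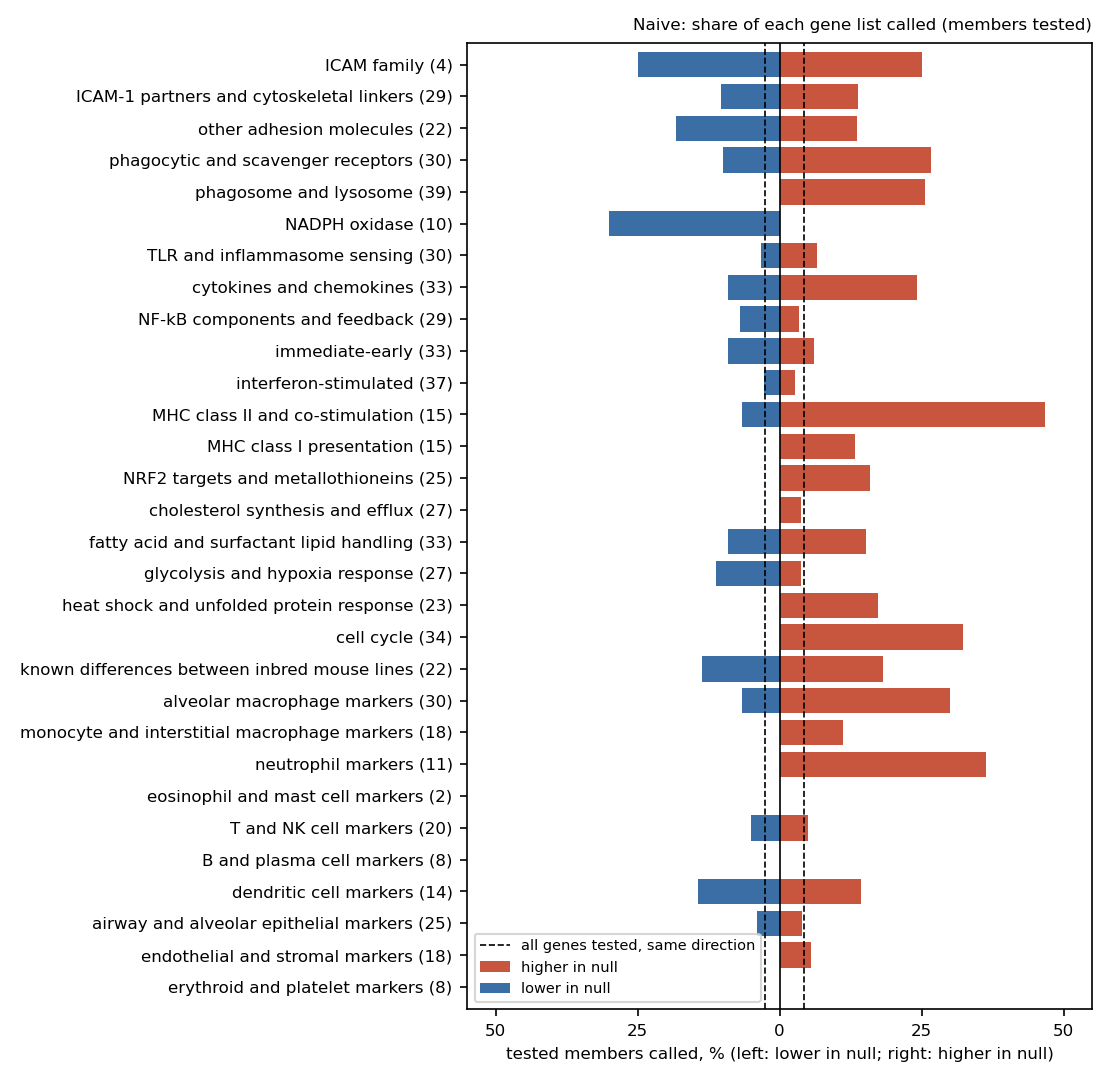
Share of the tested members of each gene list that were higher (right) or lower (left) in naive null mice, in percent, with the number tested in brackets. Dashed lines mark the shares over all genes tested, 4.31% higher and 2.55% lower. The longest bar to the right is that of MHC class II and co-stimulation, with 7 of 15.

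Several cytokine and chemokine genes were higher in naive null mice. Il18, a cytokine held ready as a precursor in macrophages, had 498, 486, 474 and 539 TPM in wild type and 888, 888, 807, 877 and 981 TPM in null libraries (0.91, SE 0.07, adjusted p = 4e-09). Ccl22, a ligand of CCR4, had 10.4 to 13 TPM against 21.0 to 36.5 TPM (1.24, SE 0.14), and Ccl9 had 13.4 to 27.1 TPM against 34.1 to 80.3 TPM (1.69, SE 0.26). The neutrophil attractant Cxcl3 had 6.08 ± 1.72 against 11 ± 0.53 TPM (0.89, SE 0.20). Il1rn, the antagonist of the IL-1 receptor, was lower, with 213, 208, 235 and 240.3 TPM in wild type and 141, 162, 135, 156 and 139.5 TPM in null libraries (-0.54, SE 0.11, adjusted p = 0.0026). Cxcl14 (-1.12) and Osm (-0.69) were lower too, the last with a call lost without wild type library 1 (adjusted p = 0.051), wild type library 3 (0.091) or null library 4 (0.051).

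Of 33 cytokine and chemokine genes tested, 8 were higher and 3 lower (33.3% called, against 6.86% over all genes), with a median of 0.43. The 8 also held Cxcl1, Cxcl2, Ccl3 and Ccl4, whose wild type values were uneven between libraries: Cxcl2 had 17.4, 37.2, 35.0 and 72.7 TPM in wild type and 72.0 to 79.8 TPM in null libraries. Wild type library 4, the deepest, overlapped the null libraries for Cxcl2. Its call was lost in 7 of the 9 fits without a single library, that of Ccl4 in 4, of Ccl3 in 3 and of Cxcl1 in 1. Only 5 members were called higher without wild type library 1 and 4 without wild type library 2, whereas 11 were called without wild type library 4.

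Smaller shares of the sensors and signalling genes upstream of these cytokines were called. They were 10% of Toll-like receptor and inflammasome genes and 10.3% of NF-kB components, against 6.86% over all genes tested. Among Toll-like receptor and inflammasome genes, 2 of 30 were higher and 1 was lower. Tlr3, the receptor for double-stranded RNA, had 2.19, 3.89, 5.22 and 6.42 TPM in wild type and 0.847 to 1.22 TPM in null libraries (-2.06, SE 0.30, adjusted p = 7.9e-05). Tirap, a TLR adaptor, was higher by 0.64 (SE 0.09). The kinase Irak2 was higher by 0.44, a call lost in 5 of the 9 fits without a single library (adjusted p up to 0.12). Of 29 NF-kB components, Ikbke was higher (1.14, SE 0.23) and Bcl3 (-0.85, SE 0.19) and Ikbkb (-0.27) were lower. The Ikbkb call was lost without wild type library 4 (adjusted p = 0.065).

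Of 33 immediate-early genes, 2 were higher and 3 lower (15.2% called, against 6.86% over all genes). Gadd45a, a stress-inducible gene, was higher at 10.2 ± 1.55 against 4.53 ± 0.57 TPM (1.25, SE 0.14), as was Maff. Klf2, a factor linked to quiescence, was lower at 11.3 ± 1.62 against 23.9 ± 7.14 TPM (-1.02, SE 0.17), as were Dusp5 and Jund. Of 37 interferon-stimulated genes, Ifih1 was higher (0.41) and Irf8 lower (-0.36), a share of 5.41% called, against 6.86% over all genes tested. The Irf8 call was lost in 5 of the 9 fits without a single library (adjusted p up to 0.085).

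Targets of the antioxidant factor NRF2 that passed were higher. Of 25 tested, 4 were higher and none lower (16% called, against 6.86% over all genes), with a median of 0.17. Slc7a11, the cystine carrier, had 2.99, 3.15, 2.36 and 4.04 TPM in wild type and 5.78, 12.5, 8.89, 9.56 and 10.6 TPM in null libraries (1.66, SE 0.19, adjusted p = 2.8e-06). Srxn1, which repairs peroxiredoxins, was higher by 0.58 (SE 0.10) and Txnrd1, thioredoxin reductase, by 0.46. Hmox1, which breaks down heme, was higher by 0.49 (adjusted p = 0.032), a call lost in 7 of the 9 fits without a single library (adjusted p up to 0.11). Among heat shock and unfolded protein response genes, 4 of 23 were higher and none lower (17.4% called, against 6.86% over all genes). The 4 were Trib3, Asns and the near-identical pair Hspa1a and Hspa1b, whose reads may be shared. Null library 1 had 6.16 TPM of Hspa1a, within the wild type range of 4.24 to 7.92 TPM, and the other null libraries had 19.9 to 29.6 TPM. Only 2 of these 4 were called without wild type library 1, where Asns (adjusted p = 0.060) and Hspa1b (0.085) were lost. Over the 9 fits without a single library the Asns call was lost in 5 (adjusted p up to 0.091) and the Hspa1b call in 3.

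A set of cell cycle genes was modestly higher in null mice. Of 34 tested, 11 were higher and none lower (32.4% called, against 6.86% over all genes), and the median was 0.32. Mki67, the proliferation marker, had 25.4, 20.9, 29.7 and 27.8 TPM in wild type and 38.2, 37.0, 37.4, 32.9 and 33.4 TPM in null libraries (0.52, SE 0.10, adjusted p = 0.0021). Birc5, of the chromosomal passenger complex, had 26.6 ± 2.95 against 40.9 ± 6.67 TPM (0.68, SE 0.11), and Ube2c, a ubiquitin-conjugating enzyme of mitotic exit, 37.4 ± 7.39 against 58.0 ± 7.15 TPM (0.69, SE 0.13). Only 5 members were called without wild type library 2 and 7 without null library 1, 6 on log2(TPM + 1) and none without wild type libraries 1, 2 and 3 together. In exposed mice none of the 34 was higher and 2 were lower, beside 4.43% and 4.04% of all genes, but the interaction, which tests the difference of the differences, was called for none of them.

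Lipid and sugar metabolism differed gene by gene. Fabp5, a fatty acid carrier, had 416 to 518 TPM in wild type and 710.5 to 951 TPM in null libraries (0.83, SE 0.09, adjusted p = 1.1e-06), and Acadl, an enzyme of fatty acid oxidation, was higher by 0.40 (SE 0.07). Plin4, a lipid droplet coat protein, was higher but scarce, at 0.0418 ± 0.0515 against 0.627 ± 0.204 TPM. Pltp, the phospholipid transfer protein, was lower at 84.4 ± 19.8 against 165 ± 17.4 TPM (-0.89, SE 0.15), and so was the desaturase Scd2 (-0.70). Of 33 genes of fatty acid and surfactant lipid handling, 5 were higher and 3 lower (24.2% called, against 6.86% over all genes). In cholesterol synthesis and efflux 1 of 27 was called (3.7%, against 6.86% over all genes). This was Nr1h3, the liver X receptor alpha, higher at 84.4 ± 8.00 against 50.1 ± 4.76 TPM (0.82, SE 0.12). In glycolysis, Hk1, a hexokinase, was lower with 8.88 to 10.6 TPM against 3.13 to 5.90 TPM (-1.18, SE 0.16, adjusted p = 2.3e-05), and Tpi1 and Slc16a3 were lower by less. Hk3, another hexokinase, was higher by 0.30, a call lost without wild type library 3 (adjusted p = 0.065).

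The labelled cell type was checked against its own markers and those of other cells. Of 30 alveolar macrophage markers, 9 were higher and 2 lower in null mice (36.7% called), with a median of 0.19. Ear6, a ribonuclease of the eosinophil-associated family, had 11.2, 6.95, 9.74 and 14.4 TPM in wild type and 42.2, 56.0, 107, 60.9 and 93.3 TPM in null libraries (2.78, SE 0.32, adjusted p = 3.8e-06). Car4, a carbonic anhydrase, was lower at 374 to 500.2 TPM against 934 to 1005 TPM (-1.11, SE 0.13), and Siglecf, the sialic acid lectin used to gate these cells, did not pass at 304 ± 6.10 and 238 ± 26.0 TPM (adjusted p = 0.11). Car6 was listed at 0 TPM in all wild type libraries and at 0.133 to 0.322 TPM in null libraries. Monocyte and interstitial macrophage markers summed to 330 to 409 TPM in wild type and 335 to 485 TPM in null libraries. Of 18 tested, 2 were higher and none lower (11.1% called, against 6.86% over all genes tested). The median was -0.09, and 8 of the 18 log2 fold changes lay above 0. Apoe, a lipid carrier, was higher (0.66) and alone made 30.9% of the sum in wild type and 41.5% in null mice.

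Markers of other leukocytes moved unevenly within their lists. Neutrophil markers summed to 120 to 146 TPM in wild type and 233 to 296 TPM in null libraries. Of 11 tested, 4 were higher and none lower (36.4% called, against 6.86% over all genes). The median was 0.25, and 8 of the 11 log2 fold changes lay above 0. Csf3r, the G-CSF receptor, had 33.3, 27.8, 30.7 and 34.6 TPM in wild type and 105, 96.0, 98.1, 99.9 and 95.8 TPM in null libraries (1.73, SE 0.08, adjusted p = 3.3e-12). The chemokine receptors Cxcr1 (1.40) and Cxcr2 (1.46) and the calprotectin subunit S100a8 (1.38) were also higher. Csf3r made 23.2% of the sum in wild type and 37.8% in null mice, and Cxcr1 19.6% and 25.1%. Trem1, with 21.1% and 8.08% of the sum, lay the other way at 28.7 ± 3.36 and 21.1 ± 3.74 TPM and was not called. S100a9, the partner of S100a8, did not pass at 2.24 ± 0.71 and 2.52 ± 1.12 TPM, nor did the granule genes Mmp8 and Ltf, and Ngp, Elane and Mpo were listed at 0 in every naive library.

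The T and NK cell list summed to 968 to 1174 TPM in wild type and 684 to 835 TPM in null libraries. Cd2 alone made 46.4% of this sum in wild type and 31.0% in null mice. Cd3e stood at 6.75 ± 0.44 and 5.12 ± 0.79 TPM and did not pass, and Klrb1c was the only other member called of 20 (1.22), with a call lost without wild type library 1 (adjusted p = 0.060) or 3 (0.053). The share called was 10%, against 6.86% over all genes tested. B cell markers were at 45.5 to 55.8 and 39.7 to 47.5 TPM, 95.5% of it Cd22 in both lines. None of 8 was called, a list too short to set against the 6.86%. Dendritic cell markers summed to 803 to 1026 TPM in wild type and 1216 to 1434 TPM in null libraries, a list that holds H2-Ab1 and Ccl22. H2-Ab1 made 12.6% of this sum in wild type and 45.4% in null mice. Cst3 made 80.4% and 49.0%, at 771 ± 91.4 and 639 ± 35.9 TPM, and did not pass. Of 14 tested, 2 were higher and 2 lower (28.6% called). Clec9a, which marks cross-presenting dendritic cells, was lower at 0.382 to 0.805 TPM against 2.96 to 6.44 TPM (-2.62, SE 0.40, adjusted p = 0.00014), and Irf4 was lower too (-1.17).

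Epithelial markers summed to 1689 to 2206 TPM in wild type and 1340 to 1499 TPM in null libraries. Tppp3, found in ciliated cells, was lower, with 531, 312, 416 and 378 TPM in wild type and 162, 139, 102, 141 and 146 TPM in null libraries (-1.49, SE 0.14, adjusted p = 2.5e-07). Tppp3 alone made 21.9% of the sum in wild type and 9.81% in null mice. Foxj1, another airway marker on the list, lay the other way and did not pass, at 1.38 ± 0.48 and 2.56 ± 1.21 TPM (0.93, adjusted p = 0.099). Epcam, an epithelial adhesion molecule, was higher at 169 ± 31.3 against 84.7 ± 12.8 TPM (1.05, SE 0.14), and Scgb1a1 of club cells did not pass at 247 ± 41.5 and 205 ± 39.9 TPM. Tppp3 and Epcam were the 2 members called of 25 (8%), a share near the 6.86% over all genes tested. Endothelial and stromal markers summed to 45.5 to 56.2 and 56.9 to 66.2 TPM, and 1 of 18 was called (5.56%, also near 6.86%). This was Vwf, higher by 0.40, with its call lost without wild type library 1 (adjusted p = 0.057) or 3 (0.059). Red cell and platelet markers summed to 139 to 414 TPM and 101.3 to 355 TPM. None of 8 was called, again too few to set against 6.86%. A fit of the naive libraries alone took the mean levels of the epithelial list and of the T and NK list as covariates. It called 1173 genes, 974 of them among the 1406, and the same fit without covariates called 1825. The summed TPM of both lists did not overlap between the lines, and both lists hold called genes. This fit therefore cannot tell cell content from line. The part of any list in the differences above was not tested.

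Calls were spread over all autosomes and chromosome X, and chromosome 4 held the largest share. There 136 of 1155 tested genes were called (11.8%), against 8.77% on chromosome 9, where Icam1 lies, and 5.2% to 7.72% on the others. None of 36 mitochondrial genes was called. Among 270 windows of 10 Mb with at least 10 genes tested, the median share was 6.21%, and the window with the largest share was chromosome 4 from 130 to 140 Mb, with 33 of 175 genes called (18.9%), 10 higher and 23 lower. Its 4 genes with the smallest p were Hmgn2, Sh3bgrl3, Fuca1 and Cep85. Hmgn2, a nucleosome-binding protein, had 554, 526, 524 and 532 TPM in wild type and 223, 203, 200.2, 190.5 and 225 TPM in null libraries (-1.33, SE 0.06, adjusted p = 2.2e-12). Sh3bgrl3, a small thioredoxin-like protein, was lower at 328 ± 22.5 against 986 ± 67.8 TPM (-1.53, SE 0.08), and Fuca1, a lysosomal fucosidase, higher at 308 ± 14.9 against 167 ± 6.77 TPM (1.20, SE 0.09). Cep85, a centrosomal protein, had 216, 179, 458 and 504 TPM in wild type and 29.7 to 38.4 TPM in null libraries (-2.68, SE 0.27), so that wild type libraries themselves fell apart by more than 2-fold.

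The windows next in share were small. On chromosome 13 from 120 to 130 Mb, 3 of 16 genes were called, all predicted genes (Gm36079, Gm21188 and Gm36161). On chromosome 4 from 60 to 70 Mb, 7 of 39 were called, among them Orm2, the heme synthesis enzyme Alad (0.92, SE 0.13), Gm11223 and the copper transporter gene Slc31a2 (0.41). With windows of 5 Mb the largest share was 28.6%, on chromosome 2 from 60 to 65 Mb, with 6 of 21 genes called. Within 10 Mb of Icam1, 15 of 152 tested genes were called (9.87%), 11 higher and 4 lower, against 84 of 987 (8.51%) on the rest of chromosome 9. Besides Gm47079, the smallest p were those of Epor, Acp5 and Gm10182. Epor (chromosome 9, 21870193 to 21874802), the erythropoietin receptor, had 5.96, 5.16, 4.69 and 4.91 TPM in wild type and 14.2, 19.4, 21.0, 17.6 and 21.5 TPM in null libraries (2.02, SE 0.21, adjusted p = 9.5e-07). Acp5, the tartrate-resistant acid phosphatase, was higher at 487 ± 68.9 against 273 ± 22.8 TPM (0.90, SE 0.11).

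**Figure D3:**
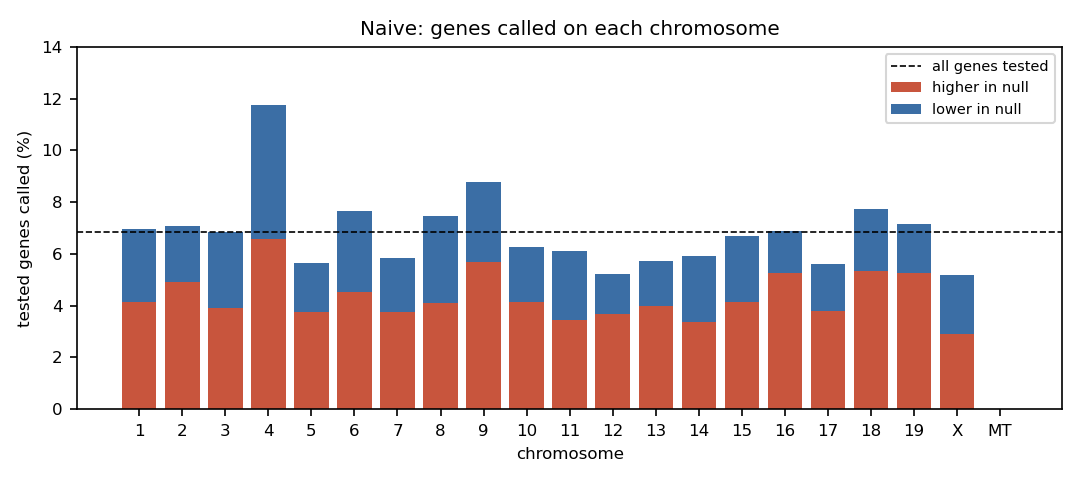
Percentage of tested genes called in naive mice on each chromosome, split into genes higher and lower in null mice. The dashed line marks 6.86%, the share over all genes tested. Chromosome 4 stands at 11.8% and the mitochondrial genome (MT) at 0.

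Some genes known to differ between inbred mouse lines were also called. Of 22 tested, 4 were higher (Wdfy1, Ly9, Cyfip2 and Nlrp1a) and 3 lower (Entpd4, Entpd4b and Sp110). The share called was 31.8%, against 6.86% over all genes tested. Wdfy1 had 15.1 to 19.9 TPM in wild type and 23.2 to 26.3 TPM in null libraries (0.79, SE 0.10, adjusted p = 2e-05). Ly9, a SLAM family receptor, had 26.1 to 30.2 TPM against 33.7 to 52.8 TPM (0.72, SE 0.10). The near-identical pair Entpd4 and Entpd4b may share reads, and both were lower by about the same (-0.72 and -0.75). The Nlrp1a call (adjusted p = 0.046) was lost in 8 of the 9 fits without a single library (adjusted p up to 0.16).

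Mice of the same lines that had been exposed gave a separate set of 10 libraries, with no library in common. Of the 1406 genes called in naive mice, 1288 (91.6%) differed in the same direction after exposure, against 57.4% of genes not called in naive mice. Called in both in the same direction were 804, which is 57.2% of the naive calls and 46.3% of the 1738 calls in exposed mice (8.48% of genes tested, 4.43% higher and 4.04% lower). Both tests share 1 estimate of the spread. Across the 1406 genes the log2 fold changes of naive and exposed mice correlated with r = 0.79, and across all 20501 genes with r = 0.32. These points are genes, which are not independent replicates. Of genes lower in naive null mice 65.0% were also called lower after exposure, and of those higher 52.5%.

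**Figure D4:**
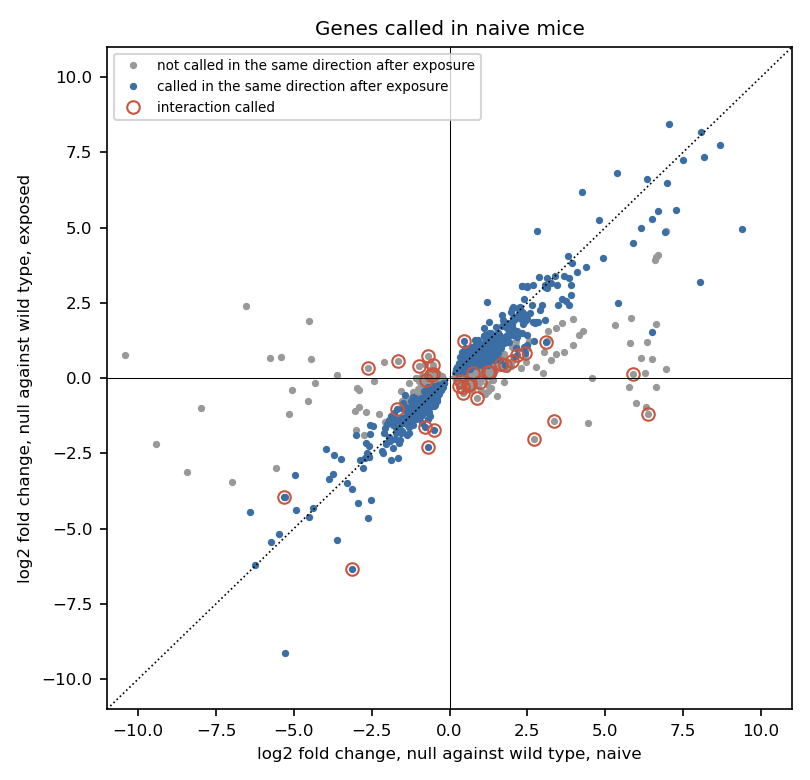
Log2 fold change of null against wild type in naive (x axis) and exposed mice (y axis) for the 1406 genes called in naive mice. Blue points were called in the same direction after exposure (804), and circles mark the 36 with a called interaction. The dotted line is equality. The values of 42 genes with no counts in every library of a naive group rest on the prior count of the fit and give no fold.

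Several of the genes with the largest naive differences were also called in exposed mice. The log2 fold change after exposure was -5.17 for Coro2b, -6.23 for Skint3, 5.58 for Aass, 5.0 for Spic and 4.50 for Slc22a4. For class II genes it was 2.15 for H2-Aa, 2.18 for H2-Ab1, 1.88 for H2-Eb1 and 2.30 for Cd74, and it was likewise called for Marco (1.77), Msr1 (-2.97), Csf3r (1.78), Il18 (0.91), Fn1 (-2.16) and Cd2 (-0.92), all called. Ncf1 (-0.03), Il1rn (-0.02), Fgr (-0.16), Ccl9 (0.50) and Ciita (1.07) were not called after exposure, but no interaction was called for them.

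The interaction was called for 68 genes in all (0.332%), 36 of them among the naive calls. Icam1 was lower by -3.13 in naive and by -6.34 in exposed null mice (interaction adjusted p = 6.6e-07). Ccl22, higher by 1.24 in naive mice, differed by 0.20 after exposure (interaction adjusted p = 0.014), and Slc7a11 went from 1.66 to 0.47 (0.040). Clec9a went from -2.62 to 0.33 (0.015), Clec4e from 0.64 to -0.21 (0.044) and Osm from -0.69 to -2.30 (0.0022). For 7 naive calls the gene was also called in exposed mice in the opposite direction: Pdik1l, Samd11, Cxcl3, Gm47079, Lmnb1, Dusp5 and Gm47283. Cxcl3 was higher in naive null mice by 0.89 and lower after exposure by -0.66 (interaction adjusted p = 0.0074). Dusp5, a phosphatase of MAP kinases, was lower by -0.54 and then higher by 0.42 (0.0015).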

How the data were processed

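RNA-seq of lavage cells was analysed from the estimated counts and the TPM values per gene that the authors deposited for 19 libraries. STAR, StringTie version 2 and build GRCm39 are named in the submitters' processing notes, and no strand setting or filter is recorded in the labels. Of 56941 genes, 20501 passed filterByExpr. edgeR 4.0.16 (R 4.3.3) fitted the 4 groups of all 19 libraries with TMM scaling and its quasi-likelihood test, and adjusted p-values (Benjamini-Hochberg, threshold 0.05) cover all genes tested. Log2 fold changes come from this fit, and means ± SD from the deposited TPM values. Each column is 1 library, and the p-values reflect how these libraries vary within a group. The fit was tested on simulated data.

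The genes named were Icam1 and its family, the 15 highest and 15 lowest fold changes among called genes with at least 1 TPM in the higher group, no overlap and no predicted name, the 4 smallest p of each list, and the 4 smallest p in the 3 top windows and within 10 Mb of Icam1. The other list members, H2-DMb2, Gm44511, the iron genes and Lyz2 were added after their values were seen. The comparison and the 30 lists (682 distinct genes, 4 of them not matched in the table) were chosen with earlier results of these data known. Total counts were 32.8 to 80.3 M per naive library. Alternatives were RLE scaling, DESeq2 1.42.0, other filters, limma 3.58.1 on log2(TPM + 1) and log2(TPM + 0.1), counts divided by 4, thinned counts, naive libraries only, a replicate block, marker covariates and libraries left out. One marker gene is not reported here.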

Additional observations from a re-analysis of the deposited data

Results flagged for a closer look

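Among 323 groups of TPM values of genes named here, 16 (4.95%) held a library far from the others of its group by Dixon's test. Chance alone gives about 1 in 20, and the groups are not independent, since they share libraries. In wild type mice the highest value was that of library 1 for Klf2 (34.6 TPM), H2-D1 (2071 TPM) and Hsd17b14 (0.190 TPM), and that of library 3 for Itga6 (15 TPM). The lowest was that of library 3 for Skint3 (9.95 TPM) and Ly9 (26.1 TPM), of library 4 for Entpd4 (7.94 TPM) and Gm36079 (3.10 TPM), and of library 2 for Tirap (9.77 TPM). In null mice the highest value was that of library 1 for Birc5 (52.5 TPM), of library 2 for Adamts2 (0.404 TPM) and Slc22a4 (34.8 TPM), of library 4 for Rgs7bp (2.61 TPM), and of library 5 for Atp6v0d2 (1034 TPM) and Gm36079 (13.2 TPM). The lowest was that of library 5 for Itga6 (10.6 TPM), so that the lines overlapped for this gene.

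For 11 of the named genes the difference between the lines itself differed between naive and exposed mice, by edgeR's interaction term with adjusted p over all genes. Icam1 (adjusted p = 6.6e-07) and Osm (0.0022) had the larger difference after exposure. Gm47079 (0.0002), Cxcl3 (0.0074) and Dusp5 (0.0015) changed direction, all called in both. Ccl22 (0.014), Slc7a11 (0.040), Clec9a (0.015) and Clec4e (0.044) were called in naive mice and not after exposure. Ppfia4 went from -5.32 to -3.96 (0.039), and Slc11a2 from 1.78 to 0.44 (0.0002).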

How the results depend on the processing

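The number of genes called between the naive lines (1406) lay between 1173 and 1825 in the alternatives that kept all naive libraries, and between 1072 and 1360 without a single naive library. Without wild type naive libraries 1, 2 and 3 together it was 321, of which 307 were among the 1406; this leaves 1 wild type library by construction, assumed to vary like the other groups. DESeq2 called 1785 genes, and the fit of the 9 naive libraries 1825. The number of called interactions (68) was 230 with DESeq2, 38 with no filter on low counts and 110 with limma on log2(TPM + 1); the cause was not tested. With the replicate block, 1365 genes were called between the naive lines and 52 interactions. Whether the replicate numbers pair the libraries could not be settled from so few pairs. Deviations of libraries with the same number correlated with r from -0.03 to 0.07, those of other pairs from -0.05 to 0.03. The largest value, 0.073, was that of the libraries numbered 4. Direction was compared only for the naive differences of genes named here, though not for all of them. No call among those compared changed direction in any alternative run. Wild type libraries 1 to 3 had the lowest totals (32.8 to 41.0 M), and with all libraries thinned to the lowest total 1419 genes were called.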

Other observations

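Of 11 iron, heme and red pulp macrophage genes, 6 were higher in naive null mice and 5 did not pass. They were looked up after the values of Spic, Vcam1, Itgad, Icam4 and Epor had been seen, so they are a description with no test as a group. Tfrc, the transferrin receptor, had 12.2, 12.3, 7.70 and 20.0 TPM in wild type and 59.0, 45.3, 58.1, 62.6 and 38.4 TPM in null libraries (log2 fold change 2.15, SE 0.22, adjusted p = 5.6e-07 by edgeR). Slc40a1, the iron exporter ferroportin, had 4.17 ± 0.538 TPM (SD, n = 4) against 15.3 ± 2.82 TPM (n = 5), with a log2 fold change of 1.92 (SE 0.21). The metal carriers Slc11a2 (13.2 ± 0.865 against 37.9 ± 3.05 TPM, 1.78) and Slc11a1 (2.63 ± 0.864 against 5.68 ± 1.49 TPM, 1.41) were higher as well, as was the receptor Treml4 (0.85, SE 0.12). Blvrb, a biliverdin reductase, passed narrowly (0.33, adjusted p = 0.049), and its call was lost in 7 of the 9 fits without a single library. The ferritin chains Fth1 (adjusted p = 0.50) and Ftl1 (0.51) did not pass and their libraries overlapped. Trf, transferrin (adjusted p = 0.067), Slc48a1, a heme transporter (0.26), and Bach1, a heme-sensing repressor (0.51), did not pass either. After exposure the differences of Slc40a1 (1.19), Tfrc (0.98), Slc11a2 (0.44) and Treml4 (0.53) were also called, as was that of Blvrb (0.48), whereas that of Slc11a1 (0.59, adjusted p = 0.11) was not.

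Lyz2, lysozyme, among the most abundant transcripts, was also looked up after values were seen. It stood at 21132 ± 776 TPM in wild type and 29859 ± 968 TPM in null mice, without overlap (0.56, SE 0.06, adjusted p = 3.1e-06).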
